A study of Mus musculus and Rattus norvegicus with 4 samples.

Results

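The subject here is the set of stronger MEF2A peaks in primary rat cardiomyocytes: 306 of the 1868 peaks that the authors deposited for this library (16.4%). They were chosen by the deposited peak score alone, which is 100 or more in every member, and stronger here means only a higher score. The cardiomyocytes were isolated from newborn rats 1 to 3 days old, and MEF2A was mapped by ChIP-exo, alongside a normal rabbit IgG library from the same cell type. The other cell type was C2C12, a mouse skeletal myoblast line, taken after 48 h in differentiation medium. The study set out to compare where MEF2A binds in these cardiac and skeletal muscle cells. Each of the 4 antibody and cell type groups was 1 library, no genetic change was named for any of them, and the labels do not say how many rats gave the cardiac library. The labels carry a differentiation medium text for C2C12 under the rat libraries too, so no treatment is stated for the cardiomyocytes. The lists hold no expression values, so cardiomyocyte markers could not be checked.

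MEF2A belongs to the myocyte enhancer factor 2 family of MADS-box transcription factors, which bind a short A/T-rich element in the regulatory DNA of many muscle genes. In heart muscle these factors act with other cardiac regulators on genes of contraction and metabolism, are held back by class IIa histone deacetylases, and are targets of p38 MAP kinase. In ChIP-exo an exonuclease trims the immunoprecipitated DNA up to the crosslinked protein, so that sequenced ends gather at the edges of the bound site. A peak is an interval in which such ends were found dense enough to be called by the authors' software.

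Scores among the stronger peaks were bunched near the lower end, with a few far above the rest. The lowest was 100.5, the median 136 (quartiles 115 and 184) and the highest 1764. Scores from 100 to under 150 were held by 186 peaks, from 150 to under 200 by 49, from 200 to under 300 by 42, from 300 to under 500 by 21, and of 500 or more by 8. The first score was 1.22 times the second, the second 1.82 times the third, and the third 1.13 times the fourth. The 5 peaks just inside the threshold scored 100.5, 100.9, 101.4, 101.5 and 101.6, and the 5 just outside scored from 99.57 to 99.64. No break in the scores separated the set from the peaks below it.

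The strongest peak was the narrowest of the 8 that scored 500 or more. It scored 1764 over 106 bp on chromosome 2 at 134264789 to 134264894 (build rn5, as are all rat positions here), and the nearest other peak was 1326 kb away. The second scored 1448 over 546 bp on chromosome 1, and its nearest neighbour was 891 kb away. The third scored 796 over 404 bp on chromosome 15, with no other peak within 3108 kb. Of the 8 peaks scoring 500 or more, none had another peak within 1 kb, and their median width was 449 bp.

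The 20 highest scores came from 10 chromosomes. Chromosome 2 held 4 of them, at scores of 1764, 414, 410.2 and 383. The last 3 lay at 276029783 to 276030041, 259219837 to 259220222 and 129951495 to 129951875. Chromosome 1 held 3, at scores of 1448, 706 and 381, the last of them at 130607654 to 130608014. Chromosomes 5, 6, 7, 9 and 16 held a pair each, and chromosomes 4, 13 and 15 held 1 each, so that no chromosome held most of them. On chromosome 5 they scored 595 at 78816538 to 78817072 and 537 at 118549970 to 118550470. On chromosome 6 they scored 426 at 83264349 to 83264597 and 357 at 111719010 to 111719355. All 4 of these were wide peaks, from 249 to 535 bp. Chromosome 7 gave scores of 642 and, at 99506905 to 99507389, 451. The single peaks of chromosomes 13 and 4 scored 514 at 55989217 to 55989619 and 340 at 220837179 to 220837495. These too were over 200 bp wide. The pair on chromosome 9 scored 424 at 81771472 to 81772018 and 421 at 97844024 to 97844492. On chromosome 16 a peak of 451 bp scored 422 at 31198618 to 31199068, and a peak of only 89 bp scored 415 at 58532393 to 58532481. The peak of 89 bp and the first of the list were the only 2 of these 20 under 200 bp wide.

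Stronger peaks were wider than the remaining peaks of the list. Their median width was 199 bp (quartiles 145 and 267 bp, range 44 to 547 bp), against 111 bp (quartiles 98 and 121 bp, range 44 to 1676 bp) for the 1562 others. The exact 95% interval of the median was 183 to 212 bp in the stronger peaks and 110 to 112 bp in the others, and covers sampling of peaks within this list only. Widths from 90 to under 130 bp were held by 984 of the remaining peaks (63.0%) and by 23 of the stronger ones (7.52%). At 200 bp or wider there were 152 stronger peaks (49.7%) and 55 others (3.52%). Score and width come from the same peak calls, so this is a description and no test was made.

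**Figure D1:**
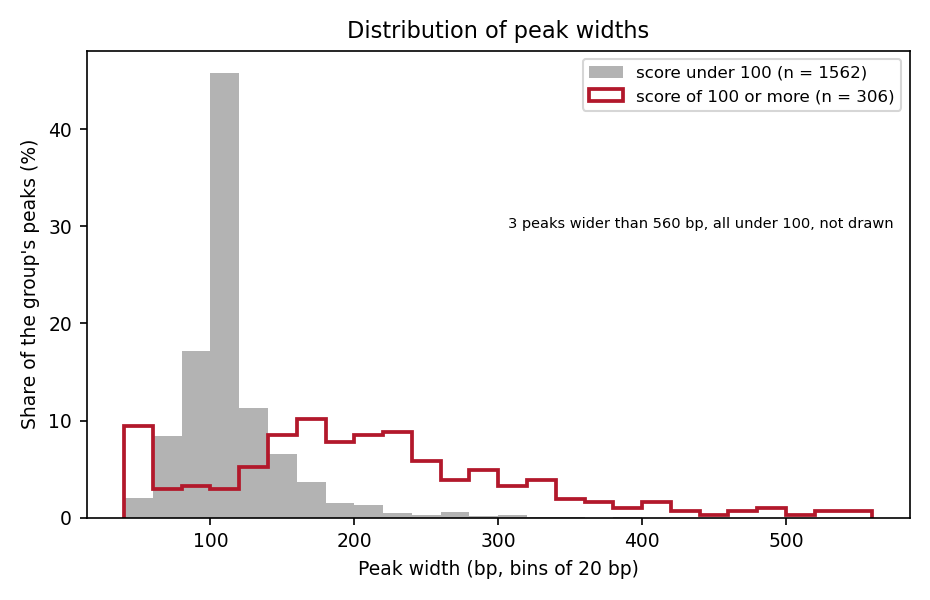
Share of peaks (vertical axis, %) in width bins of 20 bp (horizontal axis), for peaks scoring under 100 (grey, n = 1562) and 100 or more (red outline, n = 306). The grey peaks gather around their median of 111 bp, while the red outline is spread around a median of 199 bp with a separate group at its narrow end.

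Inside the set, too, peaks of higher score were wider. The median width was 168.5 bp at scores from 100 to under 150, 227 bp from 150 to under 200, 294 bp from 200 to under 300, 326 bp from 300 to under 500 and 449 bp at 500 or more. Across the 306 peaks Spearman's rho of score with width was 0.57. Across the 1562 remaining peaks it was 0.06, but the rule keeps their scores under 100. Over all 1868 rat peaks rho was 0.30, and in the stronger C2C12 peaks it was 0.74. The rat points share 1 library and 1 set of calls. The 5 widest members measured 547, 546, 535, 529 and 501 bp. The one of 529 bp, on chromosome 4 at 148312621 to 148313149, scored 137, while the other 4 scored from 424 to 1448.

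Not every wide peak was in the set. Peaks of 300 bp or wider numbered 64 in the whole list, and 54 of them (84.4%, exact 95% interval 73.1 to 92.2%) scored 100 or more. The 3 widest intervals of the list all fell outside the set. The widest, 1676 bp (score 50.3), lay on chromosome 17 at 91123335 to 91125010. The next, 955 bp (score 53.1), lay on the same chromosome at 91079217 to 91080171. The last, 639 bp on chromosome 4 at 142120419 to 142121057, scored 99.62 and missed the threshold narrowly.

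A separate group of stronger peaks was very narrow. Of the 306, 38 (12.4%) were narrower than 75 bp, a limit chosen after the widths had been seen, and 29 of these were under 60 bp. Only 19 members had widths from 75 to under 120 bp, against 150 from 120 to under 240 bp and 99 of 240 bp or more, so the narrow group stood apart from the main body. Over the whole list 8.24% of peaks were this narrow. Among the remaining peaks the count was 116 (7.43%).

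**Figure D2:**
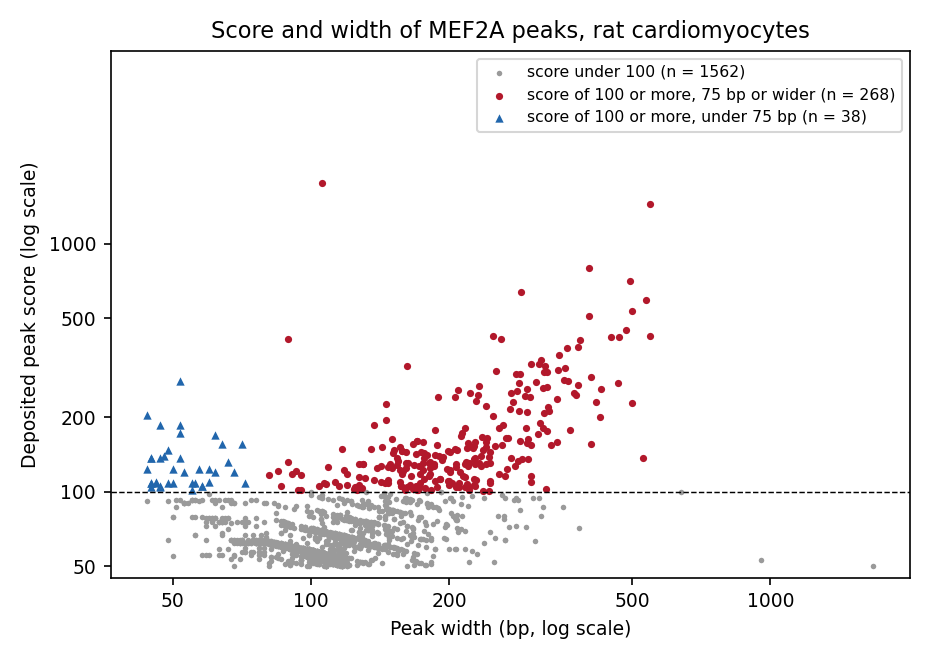
Deposited score (vertical axis, log scale) against peak width in bp (horizontal axis, log scale) for all 1868 rat peaks, with the dashed line at a score of 100. Among the stronger peaks the 268 of 75 bp or wider (red) rise in score with width, the 38 narrower ones (blue triangles) lie apart between 44 and 72 bp, and the highest score, 1764, belongs to a peak of 106 bp.

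The narrow stronger peaks had modest scores and mostly stood alone. Their median score was 122 and their highest 281, against a median of 137 and a highest of 1764 in the 268 wider members. The highest of them measured 52 bp and lay on chromosome 3 at 16069683 to 16069734. The narrowest interval, 44 bp, occurred at 33180462 to 33180505 on chromosome 16 (score 203) and at 269086284 to 269086327 on chromosome 2 (score 124). The best-scoring intervals of 45 bp were at 225881846 to 225881890 on chromosome 1 and at 55938721 to 55938765 on chromosome 5, both with a score of 136. The other 3 of 45 bp scored 108.1 (2 peaks, 1 of them at 12981009 to 12981053 on chromosome 17) and 104.4, close to the lowest score of the set. Another peak lay within 1 kb of 3 of the 38 (7.89%, exact 95% interval 1.66 to 21.4%) and of 49 of the 268 wider members (18.3%, 13.8 to 23.4%). The 2 intervals overlap. Narrow members were found on 18 of the 21 chromosomes with peaks.

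Scores recurred exactly among the narrow members. The 38 peaks had 18 distinct scores, and 28 of them shared a score with another of the group. A score of 108.1 was held by 8 narrow peaks, 45 to 72 bp wide, and scores of 123.8 and 136.4 by 4 each. Among the 268 wider members there were 257 distinct scores and 21 peaks shared one. The read counts behind a score are not part of the lists, so how many reads these narrow intervals hold is unknown.

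The share of narrow peaks did not follow score in one direction. It was 2.26% at scores from 50 to under 60, 11.9% from 60 to under 80, 18.3% from 80 to under 100 and 16.1% from 100 to under 150. It then stood at 12.2% from 150 to under 200 and 4.76% from 200 to under 300. No peak narrower than 75 bp scored 300 or more, among 29 peaks in that range.

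Most stronger peaks stood alone. Another peak of the list lay under 1 kb away from 52 of the 306 (17.0%, exact 95% interval 13.0 to 21.7%), against 122 of the remaining 1562 (7.81%, 6.53 to 9.25%) and 9.31% over the whole list. Joining peaks under 1 kb apart gave 83 runs of several peaks. Of these 48 held a stronger peak, 44 of them exactly 1, and 35 held none. All companions were weaker for 44 of the 52 (84.6%). Weaker peaks make up 83.6% of the whole list but only 122 of the 174 peaks with a close neighbour. The whole-list share is therefore no like measure for companions. A close neighbour is counted for both of its partners, and a weaker partner is by definition in the remaining peaks, so the shares are not independent.

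Within these runs the stronger peak was well above its companion. In the 44 runs with 1 stronger peak the next peak scored 63.9 in the median (range 52.3 to 91.6). Over all 48 runs the highest score was 2.20 times the next in the median, from 1.00 to 7.53 times. In the 35 runs without a stronger peak the median ratio was 1.10, but scores of the remaining peaks only range from 50.02 to 99.64. The selection by score favours unequal pairs among the 44 and limits the ratios among the 35, so the ratios are a description only. The stronger peak was the wider of the 2 highest in 37 of the 44 runs, with median widths of 184.5 bp and 111.5 bp. These are near the medians of 199 bp for stronger and 111 bp for remaining peaks over the whole list. In the 41 such runs of only 2 peaks, the stronger one lay at the lower coordinate in 18 and at the higher in the others.

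**Figure D3:**
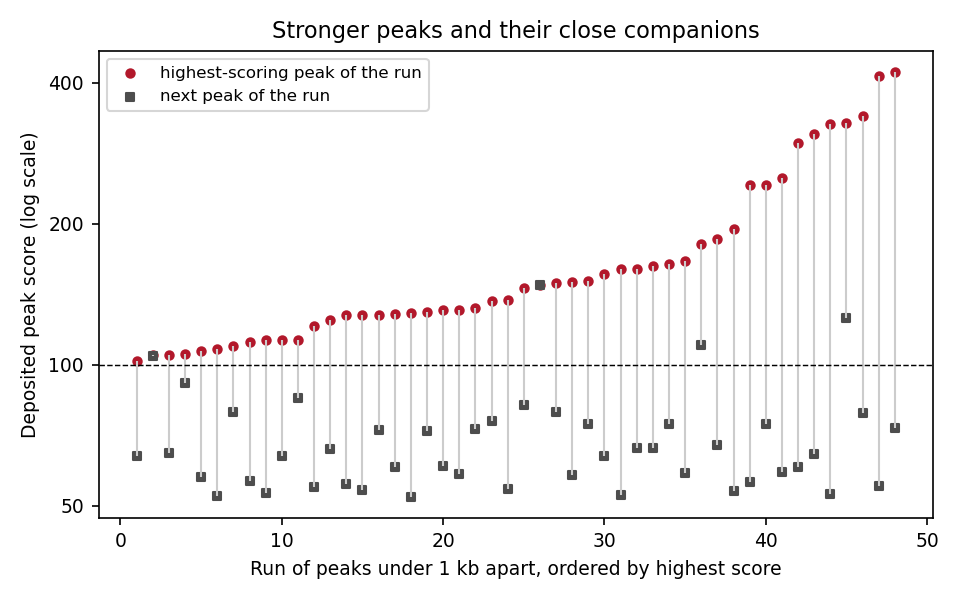
Deposited score (vertical axis, log scale) of the highest-scoring peak (red circles) and of the next peak (dark squares) in each of the 48 runs of peaks under 1 kb apart that hold a stronger peak, ordered by the highest score (horizontal axis), with the dashed line at 100. In 44 runs the next peak is under 100, and in 4 runs both peaks are in the set.

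Companions lay very close. The smallest gap in the 48 runs was 34 bp in the median, from 1 to 632 bp, and it was under 100 bp in 40 of them. In the runs without a stronger peak the median was 35 bp. The runs with a stronger peak spanned 370.5 bp in the median and at most 1371 bp, and 45 of them held only 2 peaks. The longest lay on chromosome 7 at 5304766 to 5306136 and held 4 peaks, of which the strongest scored 109.5 over 60 bp. The largest ratio, 7.53, came from chromosome 2 at 276029783 to 276030303, where the peak of score 414 had a companion of score 55.0 at a gap of 156 bp. Whether a companion is a site of its own or a piece of one region split by the peak caller was not tested.

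Only 4 runs held 2 stronger peaks, and each was a pair. On chromosome 16 a peak of 301 bp at 81105574 to 81105874 (score 327) was followed after 10 bp by one of 109 bp at 81105885 to 81105993 (score 126). On chromosome 5 the pair at 72581799 to 72581984 and 72582000 to 72582256 scored 110.1 and 181. On chromosome 13 the peaks at 114381935 to 114382086 and 114382120 to 114382236 had nearly equal scores of 147.98 and 148.2, and on chromosome 10 those at 48995684 to 48995845 and 48995861 to 48996048 had 104.5 and 104.9. The first 2 of these pairs were unequal and the last 2 were balanced.

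As shares of all peaks in each group, close runs included, nearest peaks from 1 to under 100 kb away were about as common in both. The nearest other peak lay from 1 to under 10 kb away for 16 of the 306 stronger peaks (5.23%) and 73 of the 1562 others (4.67%), and from 10 to under 100 kb away for 55 (18.0%, exact 95% interval 13.8 to 22.7%) and 270 (17.3%, 15.4 to 19.3%). The excess of stronger peaks with a neighbour within 100 kb (40.2% against 29.8%) was therefore mostly that within 1 kb. Among the 254 stronger peaks outside close runs the median distance to the nearest other peak was 309 kb (exact 95% interval 234 to 445 kb), against 407 kb (360 to 450.3 kb) for the 1440 others outside runs. Over all peaks, close runs included, the medians were 200.6 and 337 kb.

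**Figure D4:**
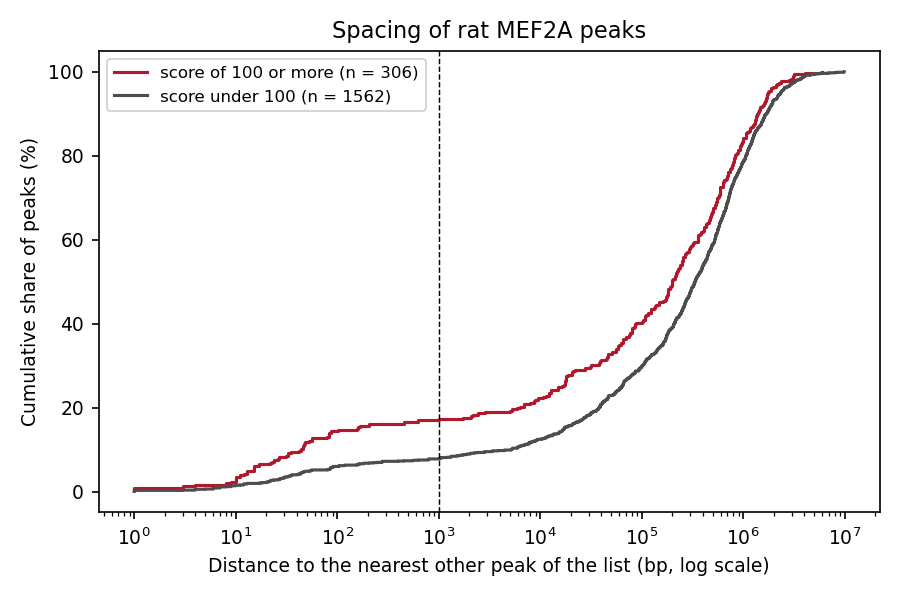
Cumulative share of peaks (vertical axis, %) by distance to the nearest other peak of the list (horizontal axis, bp, log scale) for stronger peaks (red, n = 306) and the others (grey, n = 1562), with the dashed line at 1 kb. The red curve reaches 17.0% at 1 kb against 7.81% for the grey one, and the distance between the curves is similar at 100 kb (40.2% against 29.8%).

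The nearest other peak was itself a stronger one for 66 of the 306 stronger peaks (21.6%, exact 95% interval 17.1 to 26.6%) and for 246 of the 1562 others (15.7%, 14.0 to 17.7%), where stronger peaks make up 16.4% of the list. Outside close runs the shares were 22.8% (17.8 to 28.5%) and 14.0% (12.2 to 15.9%). Within close runs, 8 of 52 stronger peaks (15.4%, 6.88 to 28.1%) had a stronger companion. The peaks in close runs were 52 stronger ones and 122 others. Stronger peaks thus formed a larger part of them than of the list, and the 16.4% is no like measure here. Peaks that are each nearest to the other are both counted, so the peaks behind these shares are not independent. Of 285 neighbouring pairs of stronger peaks on the same chromosome, 4 were under 1 kb apart, 7 under 10 kb, 19 under 100 kb and 57 under 1 Mb, with a median gap of 4.92 Mb. The longest gap was 88.7 Mb, on chromosome 4. Chaining stronger peaks under 1 Mb apart gave 206 single peaks, 31 groups of 2, 10 of 3 and 2 of 4. The groups of 4, singled out after their values were seen, lay on chromosome 6 at 59255162 to 60701783 (scores 104.4 to 178) and on chromosome 9 at 81771472 to 83183636 (scores 101.5 to 424). A compact group of 3 on chromosome 13, also singled out after its values were seen, lay within 0.25 Mb at 55973937 to 56227843. It had a highest score of 514 and a lowest of 132.5. Another group of 3 on chromosome 13 was tighter, 0.23 Mb at 114147473 to 114382236, with scores from 105.2 to 148.

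The stronger peaks were spread over all 21 chromosomes on which the list has peaks. They made up 16.4% of all rat peaks. The share was highest on chromosome 16 (15 of 60, 25.0%, exact 95% interval 14.7 to 37.9%) and chromosome 6 (24 of 106, 22.6%, 15.1 to 31.8%), and both intervals hold the overall share. It was lowest on chromosome 20 (2 of 45, 4.44%, 0.54 to 15.1%), the only one of 21 unadjusted intervals that leaves out the overall share. Its higher-scoring member reached 116. With scores of 200 or more another chromosome stood out, chromosome 16 with 7 of 60 (11.7%, 4.82 to 22.6%) against 3.80% of all rat peaks, while chromosome 20 had none of 45. Chromosome 1 had the most peaks (223) but 28 stronger ones (12.6%, 8.51 to 17.6%), and chromosome 2 had 30 of 185 (16.2%). Chromosome X held 8 of 44 (18.2%, 8.19 to 32.7%).

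**Figure D5:**
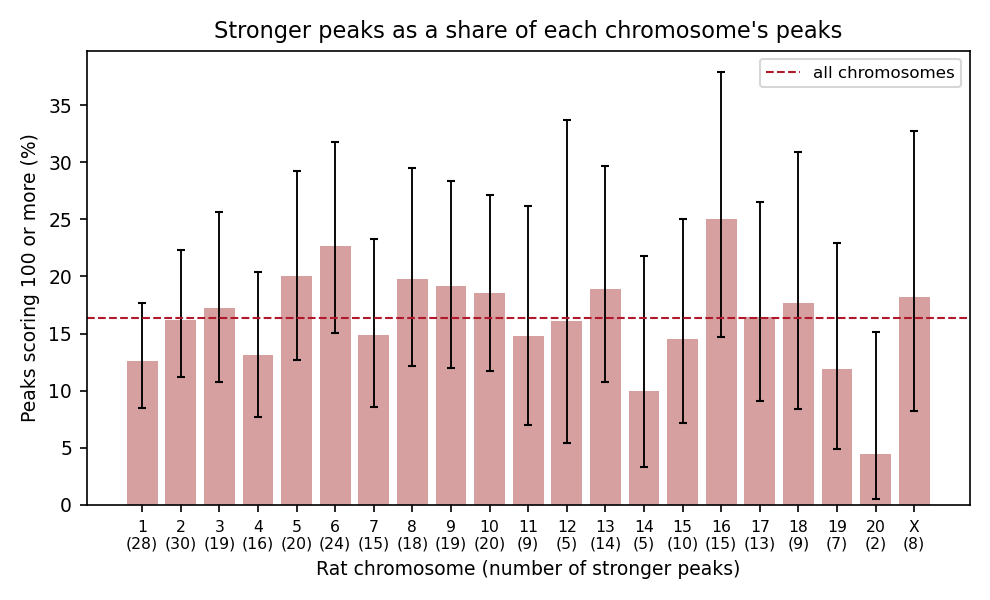
Share of each rat chromosome's peaks that score 100 or more (vertical axis, %), with exact 95% intervals as error bars and the number of stronger peaks in brackets under each chromosome. The dashed line is the share over all chromosomes, 16.4%. The interval of chromosome 20 alone lies below it.

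The density of stronger peaks along the chromosomes did not simply follow that of all peaks. Between the first and the last peak of each chromosome, chromosome 10 had 10.2 peaks and 1.89 stronger peaks per 10 Mb, the highest densities of both kinds. The X chromosome had 2.85 peaks and 0.52 stronger peaks per 10 Mb. Chromosome 20 had 8.86 peaks but 0.39 stronger peaks, the lowest density of stronger peaks among the 21. Which parts of each chromosome could be aligned is not known from the list.

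At the same score threshold, which assumes a common scale that was not tested, the C2C12 list had more and wider stronger peaks. There 1029 of 2797 peaks (36.8%) scored 100 or more, with a median width of 263 bp (quartiles 197 and 364 bp) against 199 bp in the cardiomyocytes. The 1768 other C2C12 peaks had a median width of 120 bp, so peaks of higher score were wider in both lists. At 200 bp or wider were 73.6% of the stronger and 6.84% of the other C2C12 peaks. Peaks narrower than 75 bp made up 2.82% of the stronger C2C12 peaks and 12.4% of the stronger cardiomyocyte peaks, but the lists differed in this as a whole, with 1.75% and 8.24% over all their peaks. In C2C12 cells a close neighbour was about as common among the stronger peaks (14.5%, exact 95% interval 12.4 to 16.8%) as among the others (16.2%, 14.5 to 18.0%), while in cardiomyocytes the shares were 17.0% and 7.81%. These are 1 library each of different species, cell type and unknown depth, so the differences between the lists were not tested and these sources cannot be told apart.

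Genes near the stronger peaks, their location in exons, introns or promoters, and the MEF2 element in their sequence were not analysed here, because no rn5 annotation or sequence was used. With 1 library and no read counts, no value above carries an error between replicates, and intervals cover counting of peaks only.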

How the data were processed

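Peaks of 1 MEF2A ChIP-exo library from rat cardiomyocytes were described, with the C2C12 library beside it. Per the submitters' processing notes, the tools were MACS 1.4.2, SAMtools, Picard, BWA 0.5.9 and CASAVA 1.7.0 and the builds rn5 and mm10. Their settings, and any use of the IgG libraries as control, are not stated in those notes. The name of the deposited rat list carries the words nodups, nomodel and tolarge, without further explanation. The authors deposited a score for each peak with its chromosome, start, end and name. No header states the scale of the score, which was used to choose and rank peaks within a list. Setting both lists at 100 assumes a shared scale. The lowest scores were 50.02 in the rat list and 50.08 in the C2C12 list. Positions are printed as 1-based, taking deposited starts as 0-based. The gap between peaks runs from one end to the next start.

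The members, and which features to describe, were chosen with earlier results of these data known. Named peaks are the 20 highest scores, the 5 widest, the 5 nearest to the threshold on each side, runs with 2 members and the 5 narrowest. Other peaks, and the limit of 75 bp, were chosen after their values were seen. Intervals are exact (Clopper-Pearson, or order statistics for medians) at 95%. No test was run, because the measures come from the calls that chose the members. Run finding was checked on simulated data. Alternatives were other score thresholds, merging and other gaps. Rat genes, gene lists and motifs were planned and not run without an rn5 reference. The software was scipy 1.17.1, pandas 2.3.3 and numpy 2.4.6 under Python 3.11.15, with matplotlib 3.10.9 for figures. Read depth is unknown.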

Additional observations from a re-analysis of the deposited data

How the results depend on the processing

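The number of stronger peaks and their width follow the threshold by construction. Peaks numbered 475 at a score of 80 or more, 120 at 150 or more and 71 at 200 or more, with median widths of 165, 284 and 320 bp in place of 199 bp. Merging peaks under 1 kb apart left 302 regions with a median width of 220.5 bp, where a merged region includes the companion peak and the gap. The share with a close neighbour stayed within its interval at these thresholds and with a gap of 500 bp (13.5 to 17.5%), and was 22.2% with a gap of 10 kb. With scores of 200 or more, the interval of 1 chromosome left out the overall share, as with 100 or more, but it was chromosome 16 in place of 20. Settings for motifs, distances to genes and nearest genes were not run, for want of an rn5 reference. No paired analysis was possible because no group holds more than 1 library. Depth is unknown, so weak peaks cannot be graded by counts.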
